A study of Homo sapiens with 6 samples.

Results

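The genes described here encode RNA polymerase II, its general initiation factors and Mediator. They were the 77 of 17687 measured genes whose symbol is MED or TAF with a number, begins with GTF2 or POLR2, or is TBP. By family these were 26 MED, 22 TAF, 15 GTF2 and 13 POLR2 genes and TBP, each with a single probe set. The rule used symbols alone and no measured value, though it was chosen with earlier results of these data known. Of 93 genes listed for these roles, the other 16 (among them MED6, MED24, MED25, MED26, TAF9, POLR2F and GTF2H2) were not analysed here.

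RNA polymerase II transcribes protein-coding genes. To start, it needs general factors that assemble at the core promoter: TFIID, built from TBP and the TAFs, then TFIIA, TFIIB, TFIIF with the polymerase, TFIIE and TFIIH. Mediator is a large complex that carries signals from activators bound at enhancers to the polymerase, and a dissociable kinase module holds it back from the polymerase. In T cell acute lymphoblastic leukaemia, Mediator is known for its heavy binding at the enhancers that drive the leukaemia's oncogenic transcription factors.

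The cells were Jurkat, an established human line of T cell origin that stands for T cell acute lymphoblastic leukaemia. On 3 arrays the RNA came from control cells in suspension. On the other 3 it came from cells embedded in a bovine collagen gel (type I, 1.7 mg/mL, brought to neutral with NaHCO3 and Hepes), the 3D group. Both groups were kept for 3 h at 37 °C in RPMI with 10% FBS. The 3D cells spent 1 h of this while the gel set and 2 h under added medium, and the suspension cells are described without these steps, so effects of gel setting and of the matrix itself cannot be told apart. Nothing in the labels separates cells by genotype or drug. The samples are called biological replicates and numbered 1 to 3 in each group without saying what separated them, so p-values measure the spread between these samples.

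Expression is the deposited log2 value of a probe set, and a difference is the 3D mean minus the suspension mean on that scale. Array medians lay between 5.55 and 5.64, and arrays correlated at 0.971 to 0.991 over all genes. Suspension replicate 1 stood at one end of the first principal component (score -40.4, 42.8% of the variance) and 3D replicate 3 at the other (29.2), so results are also given without single arrays. Of the members 71 had a mean at or above 6 (92.2%, against 47.2% of all genes), and the 6 dimmer ones were TAF1A, TAF1L, TAF7L, POLR2J4, GTF2IRD1 and GTF2IRD2B. All 13 T cell markers had a mean at or above 6, and 27 of 33 measured markers of other cell types lay under it. The log2 of the summed T cell marker signal was 13.56 to 13.77 in suspension and 13.54 to 13.75 in 3D, and that of the other markers 10.52 to 10.70 and 10.38 to 10.67. By gene, 9 of the 13 T cell markers were lower in 3D and 4 higher, with a median difference of -0.21, beside 0.00 for the members. Of the 13 markers 3 did not overlap, all lower, against 8.03% of all genes. Limma called 0, or 2 lower with the replicate block among genes of mean at or above 6 (against 3.78% of all genes in that fit). The part of this shift in the members' values was not tested. In bulk RNA, fewer cells of a kind and less RNA per cell cannot be told apart. Signal also depends on the probes, so levels are compared between arrays and not between genes.

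The comparison asked whether the transcription machinery itself differed at the transcript level after 3 h in collagen. Its genes were close to level on average: 41 of 77 were higher (53.2%, against 47.4% of all genes) and 36 lower (46.8%, against 52.6%), with a median difference of 0.00, beside -0.02 over all genes. No member differed by 2-fold, while 23 of all genes did. The largest difference, that of GTF2H3, was 1.58-fold, and for 49 members the difference was under 0.2 in size. Limma called 0 members at a Benjamini-Hochberg adjusted p under 0.05, where the background over all genes was 0.00%. The smallest adjusted p of a member was 0.380. At an unadjusted p under 0.05 limma gave 7 members higher and 0 lower, or 9.09% of the members against 9.87% of all genes in either direction (5.90% higher, 3.97% lower). The 7 were GTF2H3, GTF2H1, MED23, MED12L, MED13, MED4 and TAF1A. That count was 4 without suspension replicate 1 and 2 without 3D replicate 2, and quantile normalization once more gave 4 higher and 4 lower. The groups did not overlap for 9 members higher in 3D (11.7%, against 8.28% of all genes) and for 1 lower (1.30%, against 8.03%). Most members were bright, so genes of mean at or above 6 are a closer background. Of 8342 such genes 4417 were higher and 3925 lower (median 0.02), and of 71 such members 37 and 34. The groups did not overlap for 1016 of these genes higher and 685 lower, and for 8 and 1 of these members. The members' tilt to the higher side over all genes was thus not seen in the counts of higher genes at like brightness. A shortfall on the lower side remained there in the counts of groups that did not overlap. At an unadjusted limma p under 0.05 there were 6 of these members higher and 0 lower, against 751 and 305 of the 8342 genes.

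The precision of the arrays bounds what could have gone unseen. The standard error of a member's difference had a median of 0.18 and ran from 0.15 to 0.32. For 73 of 77 members the 95% interval of limma lay within a 2-fold change in either direction, as it did for 94.6% of all genes. Intervals within 0.5 on the log2 scale held for 28 members, against 29.1% of all genes. The exceptions to the 2-fold bound were GTF2H3, MED4, MED7 and TAF9B, whose intervals reached 1.09, 1.16, 1.00 and 1.29.

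**Figure D1:**
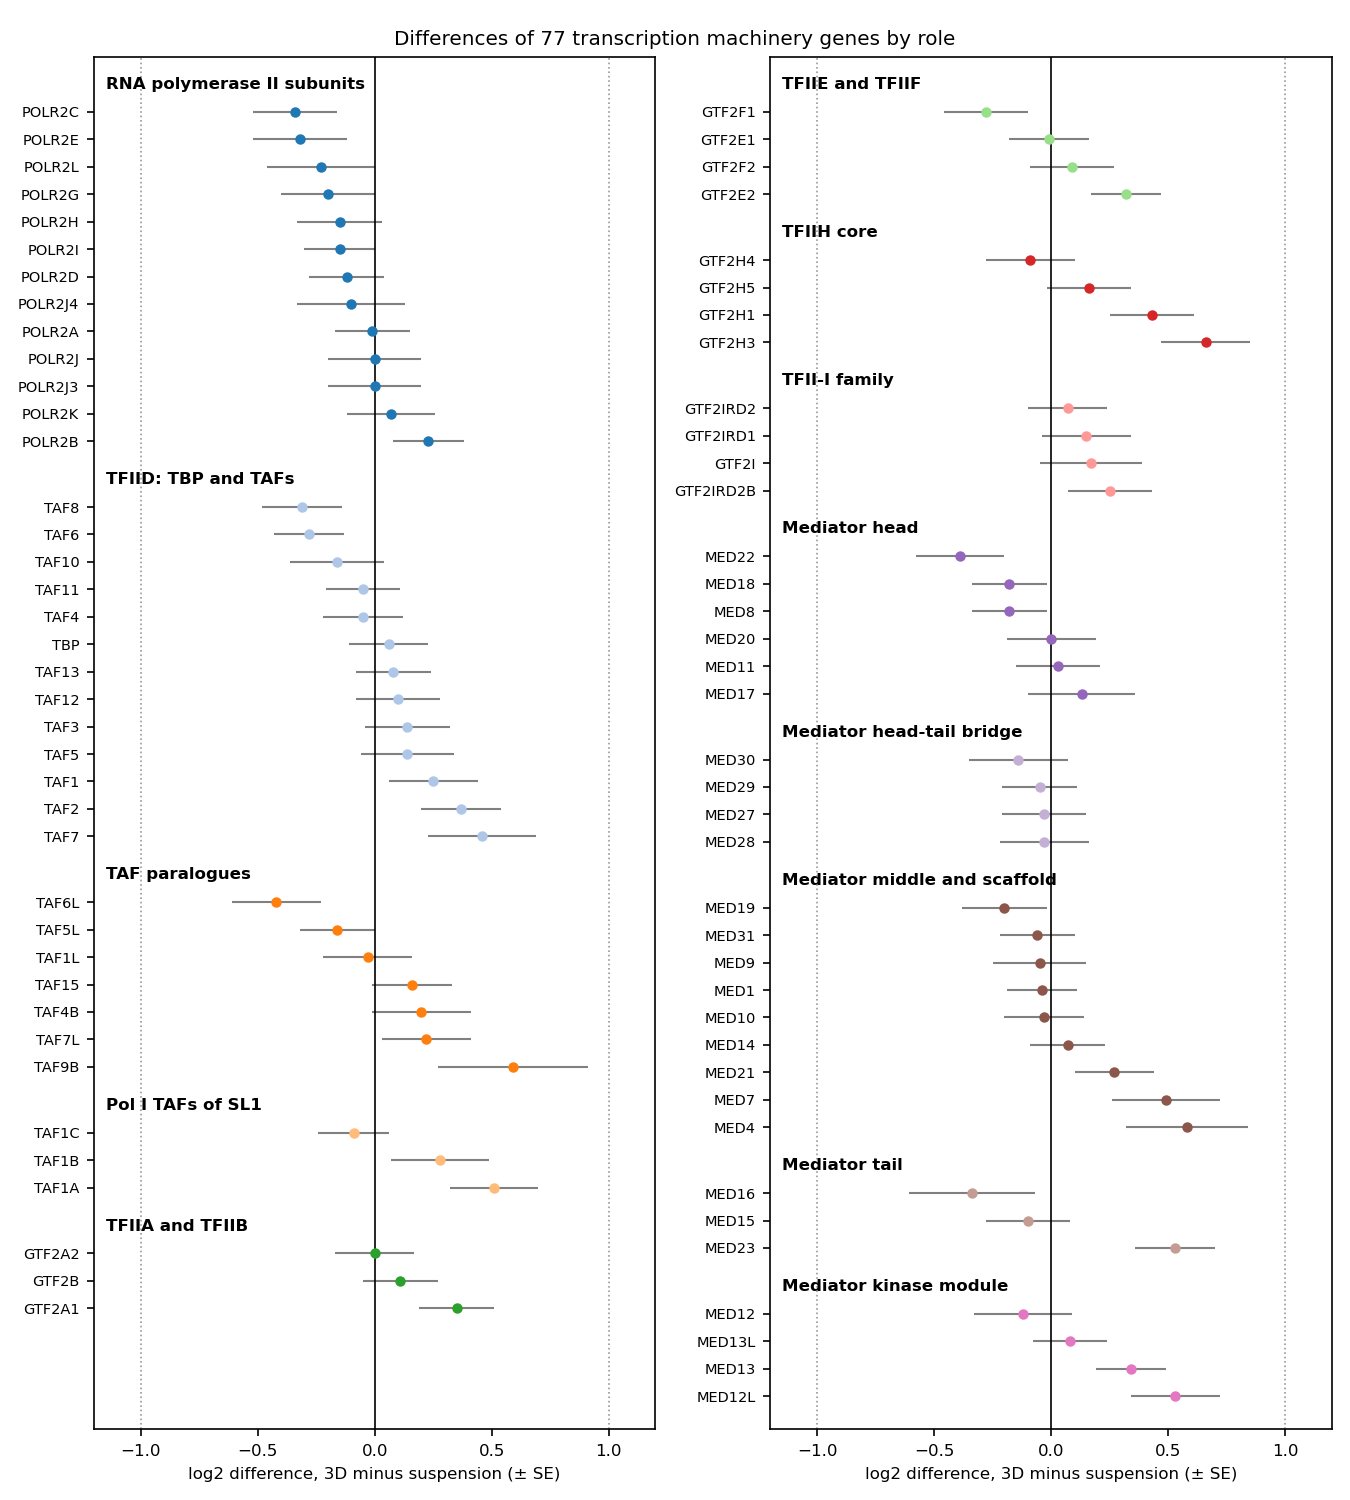
Log2 difference (3D minus suspension, x axis) with its standard error for each of the 77 genes, grouped by role; dotted lines mark a 2-fold change. No point lies beyond the dotted lines, and within most roles the points fall on both sides of 0.

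Promoters were read because TBP and TFIIB act on the DNA just before the start, though parts of the core promoter at and after the start lie outside the window used. RefSeq (GRCh38.p14) gave the 250 bases before the start for 56 of the 77 genes. The letters searched, on both strands, were TATAAA (the core of a TATA box), CCGGAAG (a site of ETS factors) and GGGCGG (a GC box of SP factors). No match to 1 of these can contain a match to another, though neighbouring matches can share bases. TATAAA occurred in 3 of the 56 members (5.36%; GTF2B, MED7 and MED16), in 8.99% of 14250 array genes and in 11.1% of all 27305 promoters. CCGGAAG occurred in 15 members (26.8%), in 11.9% of array genes and in 8.82% of all promoters, and GGGCGG in 31 members (55.4%), 57.0% and 42.3%. The 15 members with CCGGAAG had a median difference of 0.10 (10 higher, 5 lower) and the 41 without -0.01 (19 higher, 22 lower). GC content of these members' windows had a median of 58.4%, against 62.4% for array genes.

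Shown here are the windows of GTF2H3, MED23 and MED12L, the 3 genes of smallest p among members with a promoter in the table, and of POLR2A, whose difference was close to 0. Each runs 5′ to 3′ on the gene's strand and ends at the base before the start, with matches to the searched letters of either strand in capitals.
GTF2H3, chr12:123633579-123633828, strand +: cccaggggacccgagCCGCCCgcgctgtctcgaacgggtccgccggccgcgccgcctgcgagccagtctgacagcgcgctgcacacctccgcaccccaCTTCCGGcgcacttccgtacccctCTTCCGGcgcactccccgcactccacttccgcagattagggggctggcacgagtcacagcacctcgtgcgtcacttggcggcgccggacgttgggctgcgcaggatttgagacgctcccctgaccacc
MED23, chr6:131628314-131628563, strand -: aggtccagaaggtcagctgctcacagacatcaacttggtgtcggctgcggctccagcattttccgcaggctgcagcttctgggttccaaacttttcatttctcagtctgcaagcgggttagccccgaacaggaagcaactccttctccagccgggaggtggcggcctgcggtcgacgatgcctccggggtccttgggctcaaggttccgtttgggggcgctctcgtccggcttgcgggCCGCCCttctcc
MED12L, chr3:151085414-151085663, strand +: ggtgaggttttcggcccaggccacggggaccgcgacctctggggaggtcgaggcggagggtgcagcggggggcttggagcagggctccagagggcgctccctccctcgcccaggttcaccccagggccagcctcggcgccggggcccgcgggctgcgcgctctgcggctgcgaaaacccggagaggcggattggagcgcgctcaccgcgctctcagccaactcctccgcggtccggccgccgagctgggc
POLR2A, chr17:7484116-7484365, strand +: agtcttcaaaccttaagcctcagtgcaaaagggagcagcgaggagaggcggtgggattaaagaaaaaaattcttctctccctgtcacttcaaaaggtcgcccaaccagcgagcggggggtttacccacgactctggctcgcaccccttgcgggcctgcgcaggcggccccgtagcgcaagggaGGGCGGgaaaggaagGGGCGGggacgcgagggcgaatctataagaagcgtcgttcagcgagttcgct
The GTF2H3 window holds 2 matches to CCGGAAG and 1 to GGGCGG, that of MED23 holds 1 to GGGCGG, that of MED12L none, and that of POLR2A 2 to GGGCGG. None of the 4 holds TATAAA.

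RNA polymerase II has 13 measured genes by symbol, a count that includes POLR2J3 and POLR2J4, close copies of POLR2J. Of the 13, 4 were higher and 9 lower in 3D, with a median difference of -0.12. POLR2A, the largest subunit, which carries the tail of repeated heptads that is phosphorylated during transcription, measured 10.54, 10.17 and 10.26 in suspension replicates 1 to 3 and 10.35, 10.32 and 10.27 in 3D. The 3D arrays sat inside the suspension range, and the difference was -0.01 ± 0.16 (SE; 95% interval -0.36 to 0.35; limma adjusted p 0.993). POLR2B, the second-largest subunit, which forms the catalytic centre with POLR2A, measured 10.12, 10.32 and 10.28 in suspension and 10.50, 10.39 and 10.53 in 3D. It was the 1 subunit whose groups did not overlap, at a difference of 0.23 ± 0.15 (adjusted p 0.623). POLR2C, which pairs with POLR2J in the assembly platform of the enzyme, had 10.01, 9.45 and 9.80 against 9.48, 9.49 and 9.26, a difference of -0.34 ± 0.18 (adjusted p 0.554). POLR2E, a subunit shared by the nuclear RNA polymerases, had 9.21, 8.63 and 8.89 against 8.80, 8.67 and 8.28, a difference of -0.32 ± 0.20 (adjusted p 0.605). In both genes suspension replicate 1 was the highest array, replicate pair 2 differed by 0.04, and the groups overlapped. Without that array the POLR2C difference was -0.22, and without 3D replicate 3 the POLR2E difference was -0.17.

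The small subunit POLR2J has close copies in the genome, so which copy gave a probe set's signal is uncertain. POLR2J had a difference of 0.00 ± 0.20, POLR2J3 of 0.00 ± 0.20 and POLR2J4 of -0.10 ± 0.23, with adjusted p of 0.997, 0.998 and 0.905. In both POLR2J and POLR2J3 the 3D array of replicate 3 was the lowest of the 6 and that of replicate 1 the highest. POLR2J ran from 10.54 to 11.23 over the 6 arrays and POLR2J3 from 9.37 to 10.07. The remaining 6 subunit genes, POLR2D, POLR2G, POLR2H, POLR2I, POLR2K and POLR2L, differed by -0.23 to 0.07 (adjusted p 0.753 to 0.924), and their groups overlapped.

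TFIID recognises the core promoter. Of its 13 measured genes 8 were higher and 5 lower, with a median difference of 0.08. TBP, the TATA-binding protein shared by the initiation complexes of all nuclear RNA polymerases, measured 9.21, 8.77 and 9.11 in suspension and 9.22, 9.10 and 8.95 in 3D. Its groups overlapped, with a difference of 0.06 ± 0.17 (95% interval -0.32 to 0.44; adjusted p 0.922). TAF1, the largest TAF and the scaffold of the complex, had 8.11, 8.17 and 7.92 against 7.99, 8.56 and 8.42, a difference of 0.25 ± 0.19 (adjusted p 0.655).

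Within TFIID the widest differences pointed both ways. TAF7, which binds TAF1 and restrains it, had 7.62, 8.01 and 8.23 in suspension and 8.02, 8.45 and 8.79 in 3D. Each 3D array lay above the suspension array of its number, by 0.40, 0.44 and 0.56, yet suspension replicate 3 lay above 3D replicate 1 and the groups overlapped. The difference was 0.46 ± 0.23 (adjusted p 0.528). TAF2, which contacts the initiator element, had 8.21, 8.20 and 8.48 against 8.56, 8.54 and 8.89, with no overlap and a difference of 0.37 ± 0.17 (adjusted p 0.514). TAF6, a histone-fold subunit, was the 1 member whose 3D arrays all lay below the suspension arrays: 8.15, 8.02 and 8.05 against 7.75, 7.82 and 7.82, a difference of -0.28 ± 0.15 (adjusted p 0.555). The other 8 TFIID genes (TAF3, TAF4, TAF5, TAF8, TAF10, TAF11, TAF12 and TAF13) differed by -0.31 to 0.14 with overlapping groups and adjusted p of 0.563 to 0.939.

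Several TAFs have paralogues that replace them or serve other complexes, and of the 7 measured 4 were higher and 3 lower, with a median of 0.16. TAF9B, a paralogue of TAF9, had 7.50, 7.99 and 8.77 in suspension and 8.12, 8.78 and 9.11 in 3D. The spread between numbers (SD 0.64 and 0.51, n = 3 each) was as wide as the difference of 0.59 ± 0.32 (adjusted p 0.563), and each pair was higher in 3D, by 0.62, 0.80 and 0.34. TAF6L, a subunit of the SAGA coactivator, had 7.70, 7.08 and 7.23 against 7.09, 6.81 and 6.86, the largest negative difference of all members at -0.42 ± 0.19 (adjusted p 0.512). TAF7L, known from the testis, measured 2.88 to 3.56 over the 6 arrays, with a difference of 0.22 ± 0.19 (adjusted p 0.713). Its mean of 3.16 lay below 4.22, the median of the markers of other cell types, so whether it was expressed is uncertain. TAF4B, TAF5L, TAF15 and TAF1L differed by -0.16 to 0.20 (adjusted p 0.739 to 0.971). TAF1L is a near copy of TAF1, so their signals may mix. The TAF1L mean of 3.41 also lay below 4.22, so whether it was expressed is likewise uncertain.

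TAF1A, TAF1B and TAF1C belong to SL1, the TBP complex of RNA polymerase I, which makes ribosomal RNA. TAF1A measured 5.80, 5.21 and 5.72 in suspension and 6.17, 6.22 and 5.88 in 3D. The groups did not overlap, and the difference was 0.51 ± 0.19 (adjusted p 0.440), or 0.33 without suspension replicate 2. TAF1B and TAF1C differed by 0.28 ± 0.21 and -0.09 ± 0.15 (adjusted p 0.676 and 0.854). The TAF1B difference came mostly from replicate 1, where it was 0.82, against 0.06 and -0.05 in replicates 2 and 3.

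TFIIA and TFIIB stabilise TBP on DNA and place the polymerase. GTF2A1, the large TFIIA subunit, had 8.35, 8.54 and 8.65 in suspension and 8.72, 8.90 and 8.95 in 3D. Its 3D arrays were all above the suspension arrays, by 0.37, 0.37 and 0.30 within numbers, and the difference was 0.35 ± 0.16 (adjusted p 0.515). GTF2A2, the small TFIIA subunit, differed by 0.00 ± 0.17 and GTF2B, which is TFIIB itself, by 0.11 ± 0.16, with adjusted p of 0.997 and 0.843.

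TFIIE brings in TFIIH, and TFIIF travels with the polymerase. GTF2E2, the smaller TFIIE subunit, was among the tightest members: 7.54, 7.65 and 7.61 in suspension and 7.92, 7.86 and 7.99 in 3D (SD 0.06 in each group, n = 3). The groups stood apart, and the difference was 0.32 ± 0.15 (adjusted p 0.514), with an SE that limma draws toward the spread of other genes. GTF2F1 and GTF2F2, the TFIIF subunits, differed by -0.28 ± 0.18 and 0.09 ± 0.18 (adjusted p 0.612 and 0.881). GTF2E1, the larger TFIIE subunit, differed by -0.01.

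TFIIH opens the promoter and phosphorylates the polymerase tail, and it also works in nucleotide excision repair. Of its 4 measured core genes 3 were higher and 1 lower, with a median of 0.30. GTF2H3, a core subunit, had 6.95, 6.32 and 6.69 in suspension and 7.43, 7.14 and 7.40 in 3D. All 3D arrays lay above all suspension arrays, by 0.47, 0.81 and 0.70 within numbers. The difference of 0.66 ± 0.19 (95% interval 0.24 to 1.09; adjusted p 0.380) was the largest of the 77 genes. GTF2H1, another core subunit, had 9.42, 9.50 and 9.88 against 10.04, 10.17 and 9.87, a difference of 0.43 ± 0.18 (adjusted p 0.485). In replicate 3 the GTF2H1 values were level (a pair difference of -0.01), so the groups overlapped there. GTF2H5, the smallest subunit, differed by 0.16 ± 0.18 (adjusted p 0.786), and GTF2H4 by -0.09.

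The TFII-I family is named with the general factors but acts as sequence-specific regulators. All 4 measured genes were higher, by 0.07 to 0.25, with a median of 0.16 and no adjusted p under 0.654. GTF2I had 9.48, 8.76 and 9.14 in suspension and 9.61, 9.23 and 9.04 in 3D, a difference of 0.17 ± 0.22. GTF2IRD2 and GTF2IRD2B, which are near copies so that their signals may mix, differed by 0.07 ± 0.17 and 0.25 ± 0.18, and GTF2IRD1 by 0.15 ± 0.19. The GTF2IRD2B mean of 3.85 lay below 4.22, the median of the markers of other cell types, so whether it was expressed is uncertain. By pair the family's medians were 0.01, 0.44 and 0.01, so its positive median came from replicate 2.

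Mediator had 26 measured genes, 11 higher and 15 lower, with a median difference of -0.03. Its head contacts the polymerase. The 6 measured head genes had a median of -0.09. MED22 stood lowest, with 6.91, 6.65 and 6.98 in suspension and 6.18, 6.41 and 6.79 in 3D, a difference of -0.39 ± 0.19 (adjusted p 0.535). It was lower in each pair, with differences of -0.73, -0.24 and -0.19, and the groups overlapped. Without 3D replicate 1 the MED22 difference was -0.24. MED18 and MED8 each differed by -0.18 ± 0.16 (adjusted p 0.714 and 0.716), and MED11, MED17 and MED20 by 0.00 to 0.13. MED27, MED28, MED29 and MED30, which lie between head and tail, differed by -0.03, -0.03, -0.05 and -0.14 (adjusted p 0.843 to 0.973).

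The middle of Mediator joins head and tail, with MED14 as scaffold. Its 9 measured genes had a median of -0.03, and a few stood out on the higher side. MED4 had 7.42, 8.07 and 8.48 in suspension and 8.35, 8.45 and 8.91 in 3D, a difference of 0.58 ± 0.26 (adjusted p 0.505; 0.30 without suspension replicate 1). Its pairs differed by 0.93, 0.38 and 0.43. MED7 had 7.11, 7.45 and 7.13 against 7.21, 7.80 and 8.15, a difference of 0.49 ± 0.23 (adjusted p 0.518). Both overlapped between groups: suspension replicate 3 of MED4 lay above 3D replicates 1 and 2, and 3D replicate 1 of MED7 stayed within the suspension range. The MED7 difference came mostly from replicate 3, where it was 1.02. MED21, the partner of MED7 in the hinge of the middle module, differed by 0.27 ± 0.17 (adjusted p 0.605). MED1, a subunit through which nuclear receptors and many enhancer-bound factors recruit Mediator, had 8.97, 9.19 and 9.04 against 9.06, 8.99 and 9.04, a difference of -0.04 ± 0.15 (95% interval -0.37 to 0.30; adjusted p 0.949). MED14 had 9.32, 9.05 and 9.16 against 9.16, 9.28 and 9.30, a difference of 0.07 ± 0.16 (adjusted p 0.904). MED9, MED10, MED19 and MED31 differed by -0.20 to -0.03.

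The tail receives activators. MED23, a tail subunit that binds ELK1 and other signal-driven factors, had 7.48, 7.81 and 7.93 in suspension and 8.26, 8.31 and 8.23 in 3D. The 3D arrays were close together (SD 0.04, n = 3) and all above the suspension arrays, and the difference was 0.53 ± 0.17 (95% interval 0.16 to 0.90; adjusted p 0.399). MED16 pointed the other way, with 7.86, 8.57 and 8.48 against 7.43, 8.47 and 7.98, a difference of -0.34 ± 0.27 (adjusted p 0.682), which was -0.08 without 3D replicate 1 and -0.60 without 3D replicate 2. Replicate 1 of MED16 was the lowest in both groups. MED15 differed by -0.10 ± 0.18 (adjusted p 0.871).

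The kinase module holds MED12 or MED12L and MED13 or MED13L beside a cyclin and its kinase. MED12L had 7.54, 7.25 and 7.28 in suspension and 8.13, 7.98 and 7.54 in 3D, and MED13 had 9.32, 9.44 and 9.59 against 9.79, 9.82 and 9.76. Neither overlapped between groups (for MED12L the closest arrays both read 7.54 after rounding). The differences were 0.53 ± 0.19 and 0.34 ± 0.15, with adjusted p of 0.425 and 0.505. Their paralogues had smaller differences: MED12 by -0.12 ± 0.21 (adjusted p 0.877) and MED13L by 0.08 ± 0.16 (adjusted p 0.881), and whether paralogues differ from each other was not tested. MED12 was at 8.93 in suspension replicate 1 and between 8.08 and 8.45 on the other 5 arrays.

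**Figure D2:**
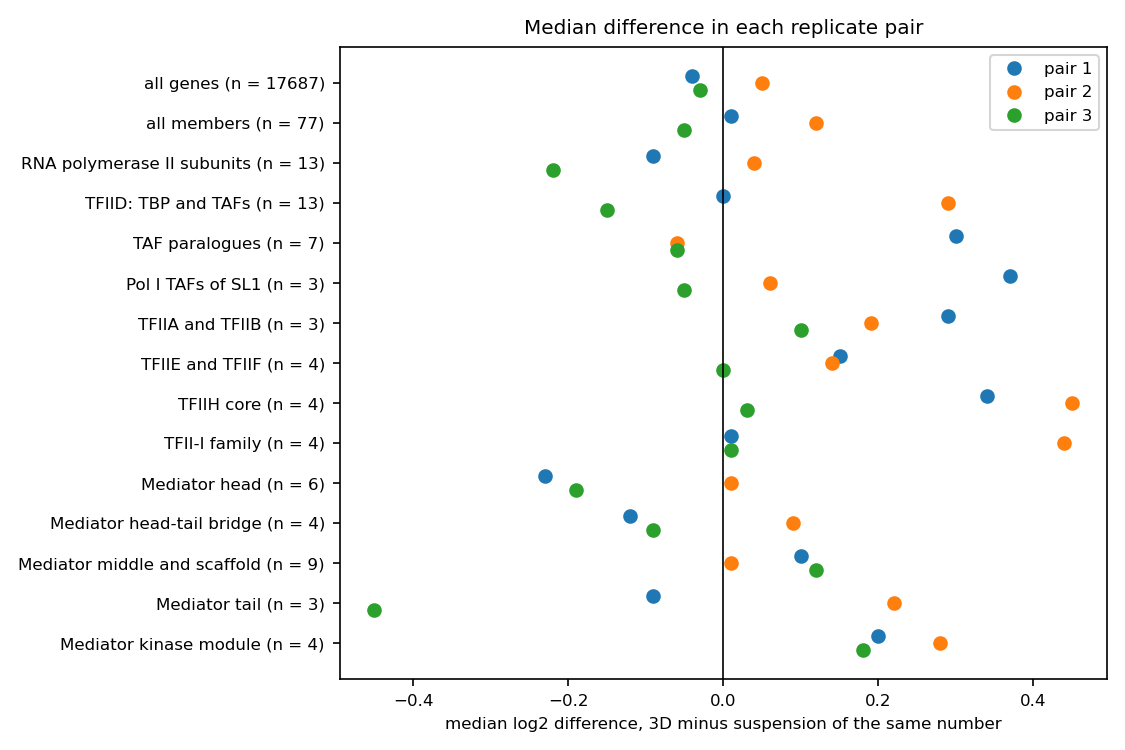
Median log2 difference (x axis, 3D minus the suspension array of the same number) of each role group, all members and all genes, with 1 point per replicate pair. The kinase module lies above 0 in the 3 pairs (0.20, 0.28 and 0.18), while the Pol II subunits run from -0.22 in pair 3 to 0.04 in pair 2.

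The median of all members was 0.01, 0.12 and -0.05 in pairs 1, 2 and 3, beside -0.04, 0.05 and -0.03 for all genes. Of the members 17 were higher in all 3 pairs (22.1%, against 20.3% of all genes) and 8 lower in all 3 (10.4%, against 19.8%). Among genes of mean at or above 6, 16 of 71 members were higher in all 3 pairs and 8 lower. Of all 8342 such genes 2487 were higher and 1809 lower in all 3. At like brightness the members' shares thus lay under the background on both sides.

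The numbers of the labels pair the arrays to some degree, as described under the processing, so the fit was repeated with the replicate number as a block. Limma again called 0 members, where 0.0905% of all genes were called higher and 0.00% lower. Among the 8342 genes of mean at or above 6, where the shared spread is estimated from brighter probe sets, 71 members remained and the blocked fit called 9. Of these 8 were higher (11.3%, against 10.6% of all genes in that fit) and 1 lower (1.41%, against 3.78%). The members' share thus lay near the background on the higher side. The 9 were GTF2H3 (adjusted p 0.00319), TAF9B (0.00757), MED4 (0.00880), MED23 (0.0133), MED12L (0.0134), TAF7 (0.0232), MED7 (0.0337) and GTF2H1 (0.0495), all higher, and TAF6L (0.0404), lower. TAF1A, with a mean of 5.83, was left out by this limit. With neither the block nor the limit the adjusted p of these 9 genes ran from 0.380 to 0.563.

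These calls needed both the block and the mean limit, and those other than GTF2H3 and TAF9B were lost in at least 1 of the 7 settings run with both. Without pair 1 the same fit called 3 members, GTF2H3, TAF9B and MED7, all higher (4.23%, against 3.97% of all genes higher and 1.52% lower). Without pair 2 it called 6 higher (8.45%, against 11.1%) and 7 lower (9.86%, against 6.40%). Without pair 3 it called 6, all higher (8.45%, against 4.42% higher and 0.444% lower). Over all genes it called 458, 1457 and 406 without pairs 1, 2 and 3, against 1199 with all pairs. GTF2H3 and TAF9B were called in each of the 7, with differences of 0.59 to 0.76 and 0.48 to 0.71. The 7 settings reuse the same 6 arrays and are not separate replications, and those without a pair had 1 residual degree of freedom. With single arrays left out and no block, GTF2H3 ranged from 0.50 to 0.81 and TAF9B more widely, from 0.29 without suspension replicate 1 to 0.93 without suspension replicate 3. TAF7 and MED7 were each at 0.28 without 3D replicate 3, and TAF6L was at -0.24 without suspension replicate 1. MED4 and MED23 were called in 6, and MED12L, MED7 and TAF7 in 5. GTF2H1 was called in 4 and TAF6L in 3. With numbers 2 and 3 crossed, the 8 higher genes were called again (11.3%, against 9.03% of all genes higher and 2.90% lower) and TAF6L was not.

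**Figure D3:**
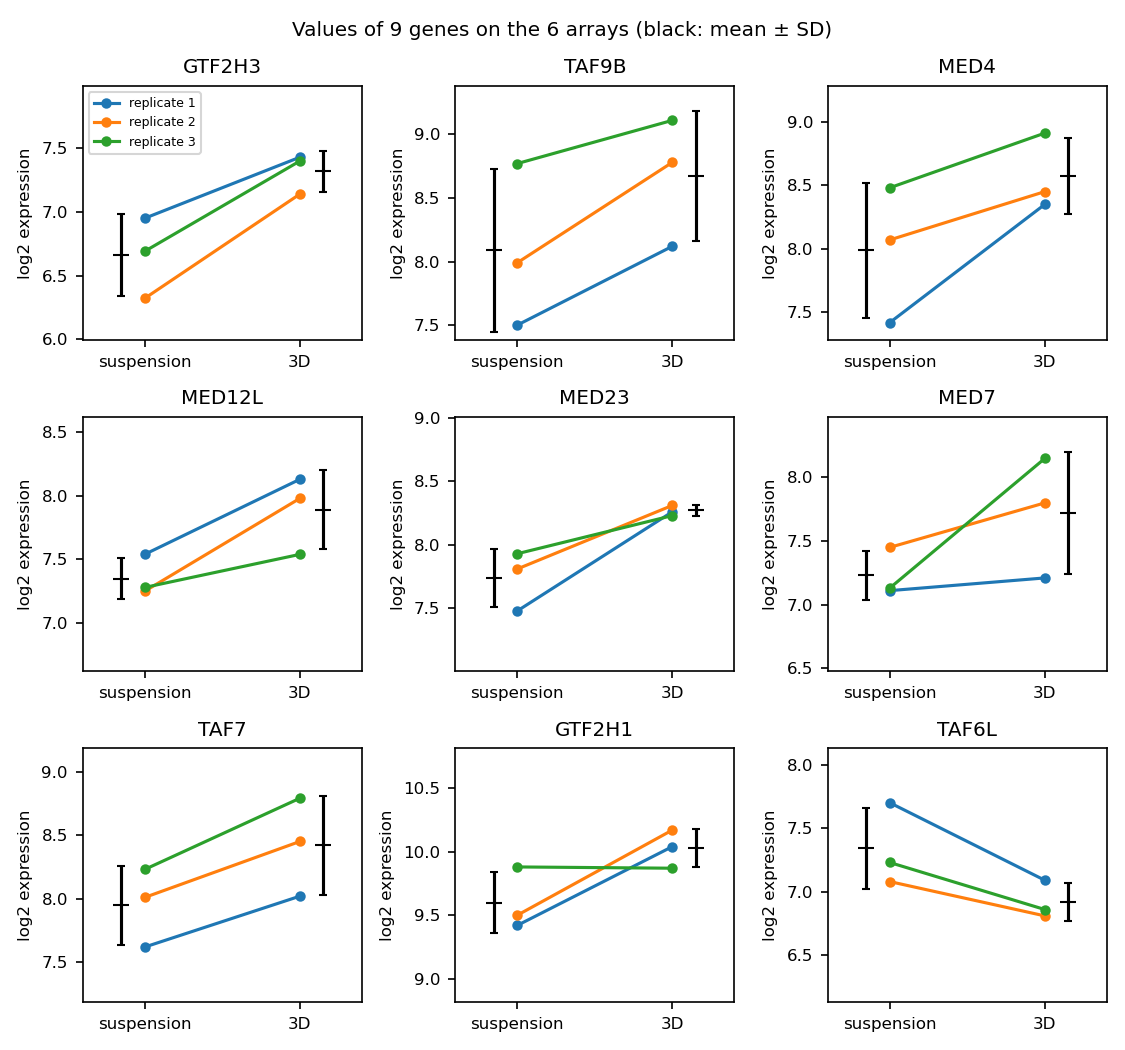
Log2 expression (y axis) of the 9 genes called with the block and the mean limit, on each of the 6 arrays; lines join arrays of the same replicate number, and black marks give the mean ± SD of each group. Replicate 3 of GTF2H1 is level, and TAF9B and TAF7 show 3 roughly parallel lines at different heights.

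Partners that the symbol rule leaves out were read from lists of related genes. Of 8 partners in the same complexes 6 were higher and 2 lower, with a median of 0.19. At an unadjusted limma p under 0.05 there were 2, both higher (against 5.90% of all genes). These were CCNH and MNAT1, the cyclin and the assembly factor of the TFIIH kinase. CCNH ran from 7.02 to 7.60 in suspension and from 7.76 to 8.08 in 3D, a difference of 0.59 ± 0.19. MNAT1 had 7.48, 7.79 and 7.95 against 8.41, 8.05 and 8.59, a difference of 0.61 ± 0.19. Neither overlapped between groups, and limma's adjusted p was 0.399 each, or 0.0105 for CCNH and 0.00768 for MNAT1 with the block and the mean limit. The kinase itself, CDK7, differed by 0.08 ± 0.17 (adjusted p 0.903), and the TFIIH helicases ERCC3 and ERCC2 by -0.31 ± 0.17 and -0.25 ± 0.19 (0.557 and 0.676). The kinases CDK8 and CDK19 of Mediator differed by 0.32 and 0.11 and their cyclin CCNC by 0.26 (0.526, 0.850 and 0.623).

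Over the 7 related lists together, 60 of 122 measured genes were higher and 62 lower, with a median of -0.01, and limma called 0. With the block and the mean limit it called 13 higher and 3 lower of the 117 that remained. Of all genes in that fit 10.6% were called higher and 3.78% lower, so the lists' share on the higher side lay near the background. The 13 were CCNH, MNAT1, BTAF1, CCNT2, LARP7, TCEA1, GTF3C3, RRN3, BDP1, POLR1F, POLR3G, RPAP2 and RPAP3, with adjusted p from 0.00111 (CCNT2) to 0.0382 (POLR3G), and the 3 were TADA3, GTF3C1 and SNAPC2 (0.0263, 0.0343 and 0.0416). At an unadjusted limma p under 0.05 there were 14 higher and 7 lower of the 122, against 5.90% and 3.97% of all genes. Among the 8342 genes of mean at or above 6 there were 751 higher and 305 lower. Among 17 relatives and regulators of TBP (median 0.05) BTAF1, the ATPase that strips TBP from DNA, had 8.44, 8.48 and 8.57 against 9.22, 8.99 and 9.05, a difference of 0.59 ± 0.15 (adjusted p 0.369), and TADA3, an adaptor of SAGA, -0.48 ± 0.18 (0.429). Among 34 pausing and elongation genes (median -0.04) CCNT2, a cyclin of the pause-release kinase, had 8.52, 8.83 and 9.07 against 9.60, 9.51 and 9.69, a difference of 0.79 ± 0.18 (0.341). MEPCE, which caps the small RNA that holds that kinase inactive, had -0.39 ± 0.15 (0.446). The CCNT2 difference was wider than that of any of the 77 members, and its groups did not overlap.

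In the other related lists the medians lay between -0.11 and 0.09. Among 17 initiation factors of RNA polymerases I and III (median -0.05) GTF3C3 and RRN3 differed by 0.55 ± 0.18 and 0.47 ± 0.17 (adjusted p 0.402 and 0.423). Among 18 subunits of those polymerases (median -0.11) POLR1F and POLR3G differed by 0.50 ± 0.19 and 0.42 ± 0.17 (0.440 and 0.460). In the list of polymerase assembly and tail phosphatases (14 genes, median -0.02) RPAP2 and RPAP3, which act in tail dephosphorylation and polymerase assembly, differed by 0.51 ± 0.16 and 0.58 ± 0.20 (0.402 and 0.410). Integrator, which cuts nascent RNA (14 genes, median 0.09), had INTS1 and INTS15 at -0.34 ± 0.18 and -0.36 ± 0.19, and INTS2 on the other side at 0.32 ± 0.17 (0.546 each).

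The members' differences varied with where and how long the gene is. Genes with long spans and few neighbours tended to be higher in 3D, and short genes in crowded regions lower. Across the 77 genes, which share the same 6 arrays, the Spearman correlation of the difference was 0.440 with gene span and -0.526 with the number of other genes within 500 kb. Over all 17687 genes the same correlations were 0.249 and -0.277. For all genes these correlations and the splits below were not computed at a mean at or above 6. The members were thus not compared with genes of like brightness here. All genes were also grouped by span, and the fit with the block and the mean limit was read by group. In the shortest group (median span 3.53 kb) it called 16 higher and 99 lower of 1146 genes. In the longest (156 kb) it called 303 higher and 14 lower of 1598. Of the 38 members longer than the member median of 21.1 kb, 27 were higher (71.1%, median difference 0.15). Of the 39 at or below it, 14 were higher (35.9%, median -0.05). Over all genes split at the same length 55.9% and 36.7% were higher. By neighbours, 29 of 40 members with at most 31 were higher (72.5%) and 12 of 37 with more (32.4%), beside 57.2% and 35.7% of all genes.

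Among the members the pattern was seen in each pair. With neighbours the members' correlation was -0.397, -0.328 and -0.414 in pairs 1, 2 and 3, and with span 0.279, 0.395 and 0.236. With 1 array left out the members' correlation ran from -0.523 to -0.460 for neighbours. Over all genes pair 2 was weaker, at -0.108 with neighbours and 0.095 with span. Pairs 1 and 3 had -0.235 and -0.262 with neighbours and 0.237 and 0.218 with span over all genes. The roles differ in these properties: the Pol II subunit genes have a median span of 6.88 kb and 40 neighbours, and the kinase module genes 221 kb and 19. The medians of these groups were -0.12 and 0.21. TAF7 went against the pattern, as a gene of 2295 bases with 82 neighbours and a difference of 0.46. With the trend on span and neighbours taken out of every array, the differences were 0.64 for TAF7, 0.65 for GTF2H3, 0.47 for MED23 and 0.43 for MED12L. RNA quality was not analysed here, and the part of span or neighbourhood in the differences was not tested.

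**Figure D4:**
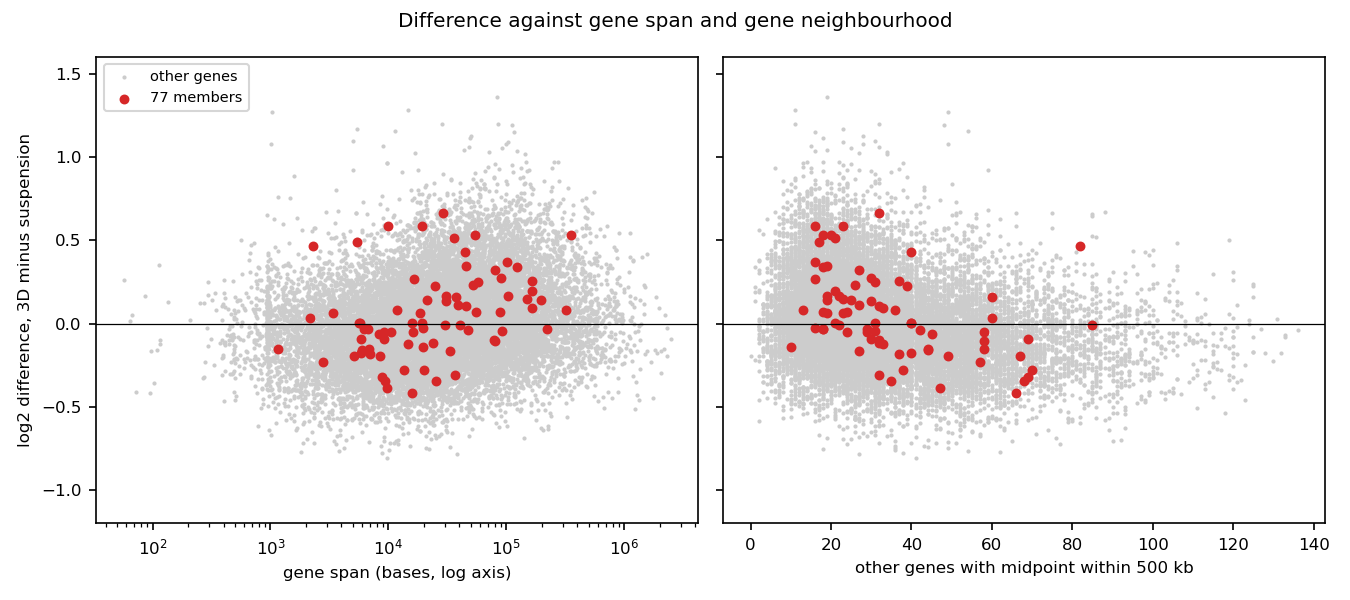
Log2 difference (y axis) against gene span (left, bases on a log axis) and number of other genes with a midpoint within 500 kb (right), with the 77 members in red over all other genes in grey. The red points run upward on the left and downward on the right (Spearman 0.440 and -0.526, n = 77).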

How the data were processed

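RNA of 6 Jurkat samples, 3 in suspension and 3 in collagen, was labelled with the GeneChip WT PLUS kit, per the labels. The authors deposited log2 expression per probe set, made with RMA and the Transcriptome Analysis Console per the submitters' processing notes. The log2 scale was read from the values. No source used here gives versions or a build. In general RMA subtracts background, quantile-normalizes and combines the probes of a set. Differences of dim genes come out too small, and a change common to most genes would not be seen. Values were used as deposited, ran from 1.97 to 13.58, and 0 columns were left unused. Detection calls were not used here.

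Of 21448 probe sets, 17709 had 1 gene symbol in the platform's gene table, 0 several and 3739 none; all 17709 matched RefSeq (GRCh38.p14) by gene identifier. The highest-mean probe set was kept for 20 genes with several, leaving 17687 genes. Spans and neighbours came from RefSeq; the files name no build. Differences were tested two-sided with limma 3.58.1 under R 4.3.3, using lmFit and eBayes on all genes and arrays with neither block nor filter (4 residual and 6.79 prior degrees of freedom). P-values were adjusted by Benjamini-Hochberg over all genes, with a threshold of 0.05. Means, SDs, intervals and medians were computed from the same values. The fits were tested on simulated data with planted changes. Of planted log2 differences of 0.5, the fit with neither block nor limit found 8.4%, the block 29.2%, and block with limit 52.4%. Of those of 1 they found 88.8%, 98.8% and 100%. Differences of 0.5 and under could thus mostly go uncalled without the block. Figures used matplotlib 3.10.9 under Python 3.11.15.

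Whether replicate numbers pair the arrays was checked on deviations from the group means. Arrays of the same number had correlations of 0.521, 0.120 and 0.337, each over the limit of 0.1, and were taken as pairs. The basis is weak, since crossing numbers 2 and 3 gave 0.230 and 0.149. Blocked results are given for the members and, with the mean limit, for the related lists.

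The members, the lists, the alternatives and the rule for named genes (in each role the 3 of smallest p, genes called with the block and the mean limit, a fixed set of central subunits and genes with near copies, and 2 genes per related list) were chosen with earlier results of these data known. The copies were taken from textbook knowledge, since protein sequences were not used here. Other members are named to account for all 77. Further related genes (INTS2, the remaining partners, and those called with the block and the mean limit) were named after their values were seen.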

Additional observations from a re-analysis of the deposited data

How the results depend on the processing

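No member was called in any of the fits without the replicate block, and over 23 alternatives the median difference of the members lay between -0.05 and 0.09. With single arrays left out, the number of members at an unadjusted p under 0.05 ran from 2 to 10 and the median from -0.02 to 0.09, the highest without suspension replicate 1. The replicate block gave 16 genes called, 0 of them members, with 16 members at an unadjusted p under 0.05. Without pairs 1, 2 and 3 it called 21, 150 and 36 genes, with 8, 15 and 10 members at an unadjusted p under 0.05.

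The block with a mean at or above 6 gave 9 members and 1199 genes called, with 19 members at an unadjusted p under 0.05. Further changes to this fit were chosen after seeing the data. Without pairs 1, 2 and 3 it called 3, 13 and 6 members and 458, 1457 and 406 genes, with 10, 19 and 12 members at an unadjusted p under 0.05. With quantile normalization once more these counts were 8, 1216 and 20. With the span and neighbour trend removed they were 8, 942 and 14, and with crossed pairing 8, 995 and 18. The block with the limit had 2 residual and 25.00 prior degrees of freedom, and the block alone 2 and 9.78. Without a pair, block and limit left 1 residual degree, with 43.05 prior without pair 1 and an unlimited prior without pairs 2 and 3. These p-values rest mostly on a spread shared over genes. The cause of the higher counts under the block and limit was not tested.

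Of 49 named members, 33 kept the sign of their difference with any array or pair left out. With single arrays left out, 14 turned and ranged as follows: GTF2A2 -0.07 to 0.11, GTF2F2 -0.02 to 0.21, GTF2I -0.02 to 0.34, GTF2IRD2 -0.03 to 0.20, MED1 -0.09 to 0.02, MED12 -0.30 to 0.12, MED15 -0.21 to 0.06, MED27 -0.15 to 0.09, MED29 -0.11 to 0.05, POLR2A -0.08 to 0.10, POLR2J -0.16 to 0.19, POLR2J3 -0.15 to 0.20, POLR2J4 -0.26 to 0.14 and TBP -0.07 to 0.15. Of the leave-outs, only the one of pair 2 turned MED14 and MED30. The signs that turned without a pair, at the same value with and without the limit, were without pair 1 GTF2A2 -0.14, GTF2F2 -0.04, MED12 0.07, MED29 0.05, POLR2A 0.08, POLR2J -0.04, POLR2J3 -0.08 and POLR2J4 0.06; without pair 2 MED1 0.05, MED14 -0.01, MED30 0.01, POLR2J -0.10, POLR2J3 -0.09 and TBP -0.08; without pair 3 GTF2IRD2 -0.02, MED15 0.07 and MED27 0.17. After quantile normalization once more, with or without the block and limit, GTF2A2 turned to -0.04, POLR2J to -0.05, POLR2J3 to -0.06 and TBP to -0.00. Median centring turned POLR2A to 0.01. With the span and neighbour trend removed, with or without the block and limit, GTF2A2 turned to -0.02, MED13L to -0.04, MED14 to -0.00, MED29 to 0.03 and POLR2A to 0.11. Array number and, for the 6 dim members, closeness to background limit precision.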
